A study of Arabidopsis thaliana with 6 samples.

Results

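The genes described are those annotated to the copying of DNA, in the nucleus or in organelles, measured in dark-grown seedlings of Arabidopsis thaliana. They were chosen from the deposited expression table as the nuclear genes whose Biological Process annotation holds DNA replication, DNA-dependent DNA replication or DNA replication initiation, with histones left out. The rule found 103 genes among the 24193 genes of the table, and no histone was among them. The rule reads annotation and no expression value. The study set lon1-1 beside its wild type, and lon1-1 is mutated in LON1, which encodes an ATP-dependent mitochondrial protease. Whole seedlings of Col-0 (wild type, called wt here, 3 libraries) and of lon1-1 (3 libraries) were kept in the dark on vertical plates for 6 days, so all libraries share darkness and age. Each library was made from total RNA after removal of ribosomal RNA, with a protocol that keeps strand. The mutant is a single allele, and the labels do not say whether the libraries of a genotype came from separate cultures. The p-values therefore measure the spread between these libraries, which may be technical.

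DNA replication starts at origins, where the origin recognition complex (ORC) together with CDC6 and CDT1 loads the ring-shaped MCM helicase before S phase, a step called licensing. In S phase CDC45 and the GINS complex turn on the helicase, RPA coats the single strands, and DNA polymerases alpha, delta and epsilon copy them with the help of the PCNA clamp and its loader RFC. In plants these genes are switched on by E2F transcription factors, which the retinoblastoma protein RBR1 restrains, and they are used both by dividing cells and by cells of the dark-grown hypocotyl, which copy DNA without dividing (the endocycle). A separate set of enzymes, encoded in the nucleus, copies the DNA of mitochondria and plastids.

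Genotype was taken from the sample titles, because the labels enter Col-0 as genotype in every case, and LON1 itself was read as a check. LON1 stood at 4.69, 4.7 and 4.69 FPKM (fragments per kilobase of transcript length, relative to library depth) in wt and at 2.67, 2.61 and 2.79 FPKM in lon1-1. A log2 fold change is lon1-1 minus wt on log2(FPKM + 1). A gene is said to have risen or fallen where its limma p, adjusted over all tested genes by the Benjamini-Hochberg method, was under 0.05. The LON1 groups did not overlap, and the ratio of means was 0.573 (log2 fold change -0.63 ± 0.06 SE, limma adjusted p = 3.58e-06). The authors' table holds no counts. Depth estimated from the steps between low values was 32750000 to 33000000 fragments in wt and 34500000 to 35500000 in lon1-1. Most of the replication genes were weakly expressed: the median of the wt means was 3.34 FPKM over the 93 that were tested, against 9.66 FPKM over all 18308 tested genes.

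Transcripts of most DNA replication genes were more abundant in lon1-1. Of the 103 genes, 93 reached 1 FPKM in at least 3 libraries and were tested, and 5 of these 93 (POL2B, MCM10, SLD5, JHS1 and AT5G52950) reached that level in lon1-1 libraries only, so the filter itself favours a difference in them. Of the 93, 66 rose, 4 fell and 23 did not pass the test. Over all 18308 tested genes 44.7% were called higher and 32.3% lower, and the replication genes stood at 71% and 4.3% of those tested, or 64.1% higher of all 103. Among tested genes with a mean of 1 to 10 FPKM, 40.9% were called higher, against 72.8% of the 81 replication genes in that range. The changes were moderate, with a median log2 fold change of 0.35 against 0.08 over all tested genes, and they ranged from -0.41 to 1.09. These counts and medians describe the set and rest in part on which members passed the filter.

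A stricter call, a change beyond 1.5-fold, was passed upward by 10 replication genes and downward by 0. The background was 8.33% of tested genes upward and 7.69% downward, and 10.8% of the tested replication genes passed upward, so by this call their share was near the background. The 10 were the polymerase gene POL2B, the RPA gene RPA70D, the helicase genes MCM2 and MCM10, the licensing genes CDC6A and CDT1A, FAS1, ICU2, STI and RNR1. This count was 5 without lon1-1 replicate A, 3 without lon1-1 replicate B and 6 with median-ratio scaling, which sets the typical gene equal between libraries. CDT1A, MCM2 and RPA70D passed under all 12 alternative settings. POL2B and MCM10 passed in the 9 settings in which they were tested, and without any 1 lon1-1 library they had too few libraries at 1 FPKM to be tested. Summed FPKM of the 103 genes was 580.6, 585 and 575.1 in wt and 703.9, 689.6 and 704 in lon1-1, without overlap. In bulk samples such as these, more cells of a type and more RNA per cell cannot be told apart.

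**Figure D1:**
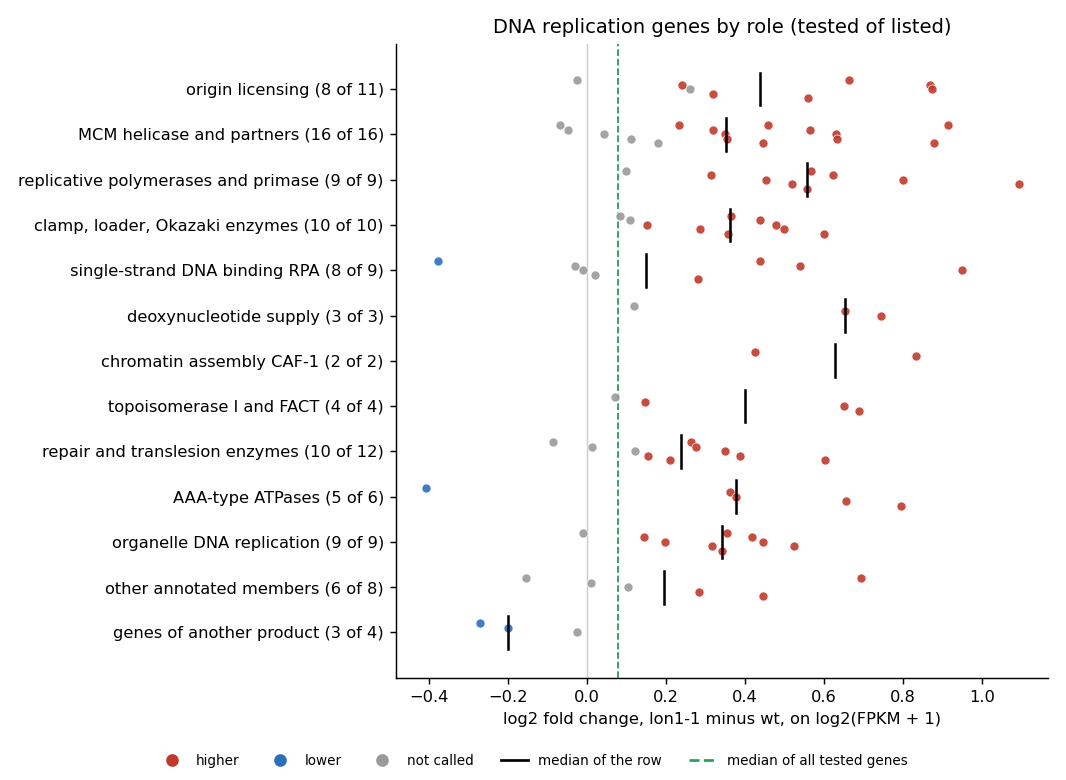
Log2 fold change (lon1-1 minus wt, on log2(FPKM + 1)) of each tested DNA replication gene, 1 point a gene, in rows by role, with red for genes called higher, blue for lower and grey for not called. Row labels give how many of the listed genes were tested, black bars are row medians, and the dashed line is the median of all 18308 tested genes (0.08). Most points lie right of the dashed line, and the 4 blue points lie between -0.41 and -0.20.

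The promoters of these genes were searched for E2F words, because E2F factors act in front of many S phase genes. The window ran from 250 bases before to 50 bases after the annotated gene start in TAIR10.1 (RefSeq annotation and sequence). The words were TTTCCCGC, TTTCGCGC, TTTGCCGC and TTTGGCGC on either strand, and matches that overlap were counted separately. A word was found in 30 of the 103 windows (29.1%), against 436 of 23950 windows over all genes (1.82%). The 34 matches had their first base at -170 to 42 bases from the gene start, with a median of -16, and 27 of them began before the start. Of the 10 genes past 1.5-fold, 5 held a word: MCM2, FAS1, ICU2, RNR1 and RPA70D. The sequences that follow are the 150 bases before the gene start for 7 genes that rose, with the E2F word in capitals: the 4 of those 5 with a match before the start, and 3 further MCM subunits with a word in these bases. Of the other subunits of the ring, MCM3 has its word farther off, at -170, and MCM7 has none in its window. MCM2 lies at chr1:16970064-16970213 on the plus strand, MCM4 at chr2:7130730-7130879, MCM5 at chr2:3527501-3527650 and MCM6 at chr5:18010668-18010817, these last on the minus strand. ICU2 lies at chr5:26776803-26776952 on the plus strand, FAS1 at chr1:24324092-24324241 and RPA70D at chr5:24552856-24553005 on the minus strand. All are written 5′ to 3′ along the gene.
MCM2: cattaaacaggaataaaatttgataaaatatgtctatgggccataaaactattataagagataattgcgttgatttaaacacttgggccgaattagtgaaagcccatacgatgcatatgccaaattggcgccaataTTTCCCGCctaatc
MCM4: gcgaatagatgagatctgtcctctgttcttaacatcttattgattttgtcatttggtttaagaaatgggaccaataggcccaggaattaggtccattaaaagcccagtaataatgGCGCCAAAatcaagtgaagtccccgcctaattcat
MCM5: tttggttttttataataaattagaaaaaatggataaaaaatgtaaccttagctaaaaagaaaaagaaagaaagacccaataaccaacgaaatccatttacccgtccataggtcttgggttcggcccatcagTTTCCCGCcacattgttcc
MCM6: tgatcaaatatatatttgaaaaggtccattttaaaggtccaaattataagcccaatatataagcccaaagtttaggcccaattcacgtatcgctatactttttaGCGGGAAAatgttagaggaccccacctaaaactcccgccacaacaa
ICU2: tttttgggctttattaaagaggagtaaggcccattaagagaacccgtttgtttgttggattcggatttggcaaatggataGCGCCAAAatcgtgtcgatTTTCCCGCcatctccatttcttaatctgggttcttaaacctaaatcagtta
FAS1: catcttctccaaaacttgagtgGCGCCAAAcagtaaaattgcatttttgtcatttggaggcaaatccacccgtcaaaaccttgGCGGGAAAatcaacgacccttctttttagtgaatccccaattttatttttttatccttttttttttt
RPA70D: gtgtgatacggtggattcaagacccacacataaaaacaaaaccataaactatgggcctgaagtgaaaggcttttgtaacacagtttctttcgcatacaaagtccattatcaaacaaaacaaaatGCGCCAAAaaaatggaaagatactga
MCM2 and MCM5 carry the same word, TTTCCCGC, with its first base at -14 and -19 from the start, MCM6 carries it on the other strand, and ICU2 and FAS1 each hold it together with TTTGGCGC.

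Of the 27 tested genes with an E2F word, 23 rose and 0 fell, with a median log2 fold change of 0.52. Of the 66 tested genes without one, 43 rose, with a median of 0.28, and all 4 genes that fell were among them. Over all genes, 159 of the 315 tested genes with a word rose and 85 fell, with a median of 0.16. Of the 17783 tested genes without one, 7926 rose, with a median of 0.08. The words were unevenly spread over the roles: 5 of 11 licensing genes, 7 of 16 helicase genes and 4 of 9 polymerase genes held one, and 0 of 6 AAA-type ATPase genes. Within roles the order of the medians varied. Among tested licensing genes the median was 0.26 for the 3 with a word and 0.66 for the 5 without. Among helicase genes the medians were 0.46 (7 genes) and 0.23 (9 genes), and among polymerase genes 0.59 (4 genes) and 0.52 (5 genes). These counts and medians were not tested, and a match is a run of letters, not a shown binding site. Another promoter word, the site II element (TGGGCC or TGGGCT) of genes active in growing tissue, stood in 46.6% of the replication gene windows and in 23.2% of all windows. Of the 44 tested replication genes with it, 34 rose and 0 fell, with a median of 0.40, and of the 49 without it 32 rose, with a median of 0.34. The telo box (AAACCCTA) stood in 10.7% and 5.82%, with medians of 0.33 for the 10 tested replication genes that hold it and 0.35 for the 83 without. Over all genes, 2488 of 4685 tested genes with site II rose, and 5597 of 13413 without it. There both words went with a higher median, 0.17 against 0.04 for site II and 0.30 against 0.065 for the telo box.

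**Figure D2:**
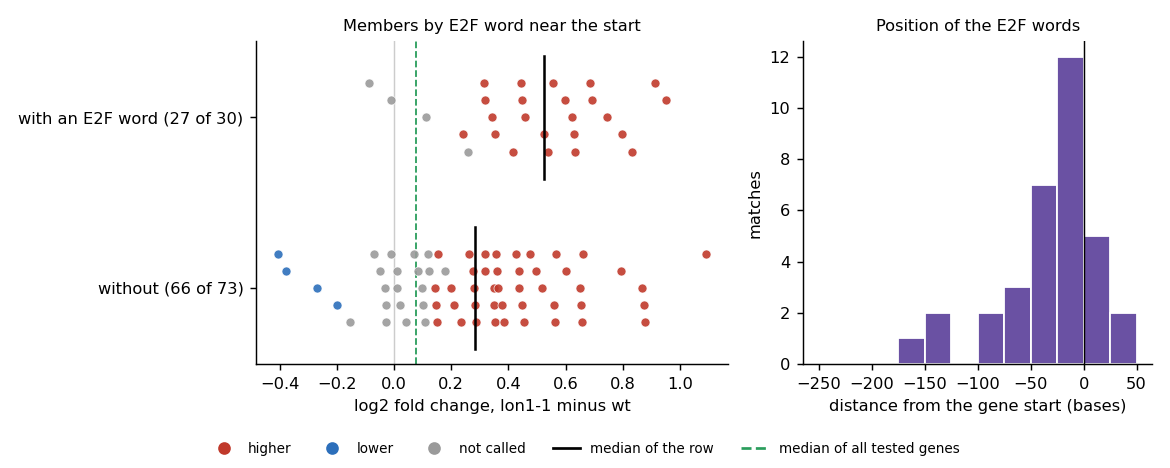
Left, log2 fold change (lon1-1 minus wt) of the tested replication genes with and without an E2F word, with colours, bars and dashed line as in the plot by role. Right, number of E2F matches by distance of their first base from the annotated gene start, in bins of 25 bases. The row with a word holds no blue point, and 27 of the 34 matches begin before the start.

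Licensing factors were at low levels in both genotypes, and several rose. Of the 11 genes, 8 were tested, 6 rose (75% of those tested, against 44.7% of all tested genes) and 0 fell. CDT1A, which delivers the MCM ring to the origin, had 4.25, 4.06 and 3.55 FPKM in wt and 8.09, 8.05 and 7.93 FPKM in lon1-1. Its groups stood well apart, at a ratio of 2.03 (log2 fold change 0.87 ± 0.06 SE, limma adjusted p = 8.6e-07), and the estimated reads behind it were 232 to 280 fragments in wt and 558 to 562 in lon1-1. CDC6A, the ATPase that works with CDT1, had 1.07, 1.32 and 0.97 FPKM in wt and 2.88, 2.96 and 2.79 FPKM in lon1-1. The ratio was 2.57 and again no library overlapped (log2 fold change 0.87 ± 0.08, adjusted p = 3.38e-06).

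Within ORC, the complex that marks origins, the change was uneven. ORC1B, a large subunit with a domain that reads chromatin, had 1.28, 1.32 and 1.29 FPKM in wt and 2.88, 2.74 and 2.31 in lon1-1. Every lon1-1 library lay above every wt library, at a ratio of 2.04 (log2 fold change 0.66 ± 0.08, adjusted p = 2.3e-05). ORC6 (log2 fold change 0.56), ORC3 (0.32) and ORC4 (0.24) also rose. ORC2 had 0.99, 1.42 and 1.07 FPKM in wt and 1.73, 1.2 and 1.85 in lon1-1, which overlap, and did not pass (adjusted p = 0.059). ORC5, the most abundant ORC subunit, did not pass, at 5, 5.01 and 5 FPKM in wt against 4.8, 5.13 and 4.76 in lon1-1 (adjusted p = 0.663). The remaining paralogs ORC1A, CDC6B and CDT1B stayed under 1 FPKM in every library and were not tested.

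The MCM2 to MCM7 subunits, which form the ring of the replicative helicase, all rose, where 44.7% of all tested genes rose. Of the 6, MCM2 alone passed the call beyond 1.5-fold. Their summed FPKM was 22.7, 21.6 and 23 in wt and 35.3, 37.6 and 35 in lon1-1, and log2 fold changes ran from 0.35 for MCM7 to 0.91 for MCM2. MCM2 had 3.23, 2.67 and 2.95 FPKM in wt and 6.02, 7.26 and 6.07 in lon1-1, a ratio of 2.19 (log2 fold change 0.91 ± 0.08, adjusted p = 3.72e-06). MCM7, which had the highest mean of the 6, had 5.34, 5.81 and 6.14 FPKM in wt and 7.54, 7.41 and 7.89 in lon1-1, a ratio of 1.32 (adjusted p = 0.000346). Neither subunit showed any overlap between genotypes. The ratios of MCM3, MCM4, MCM5 and MCM6 were 1.74, 1.45, 1.67 and 1.56.

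The partners of the helicase split into those that rose and those that did not pass. MCM10, a factor that helps to fire the helicase, had 0.68, 0.78 and 0.66 FPKM in wt and 2.07, 2.08 and 2.26 in lon1-1, or about 32, 37 and 31 against 102, 103 and 115 fragments. The libraries of the genotypes lay apart, at a ratio of 3.02 (log2 fold change 0.88 ± 0.07, adjusted p = 1.57e-06), but MCM10 passed the filter through its lon1-1 libraries alone. MCM8 (0.35), which acts in recombination, ETG1 (0.32), which binds the MCM ring, and the GINS subunit SLD5 (0.56) rose as well. Like MCM10, SLD5 passed the filter through its lon1-1 libraries alone. CDC45, which joins MCM and GINS in the active helicase, had 1.26, 1.37 and 1.59 FPKM in wt and 1.58, 1.61 and 1.99 in lon1-1, which overlap (adjusted p = 0.0794). The GINS subunits PSF1 (-0.05) and PSF2 (0.11) and MCM9 (-0.07), the partner of MCM8 in animals, also did not pass. The pair of PSF3 genes had 0.23, called higher, and 0.04, not called, but their sequences are alike enough that the split of reads between them is uncertain. In all, 11 of the 16 genes of this role rose, MCM10 and SLD5 among them, and 0 fell. That share, 68.8%, stood beside 44.7% of all tested genes.

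**Figure D3:**
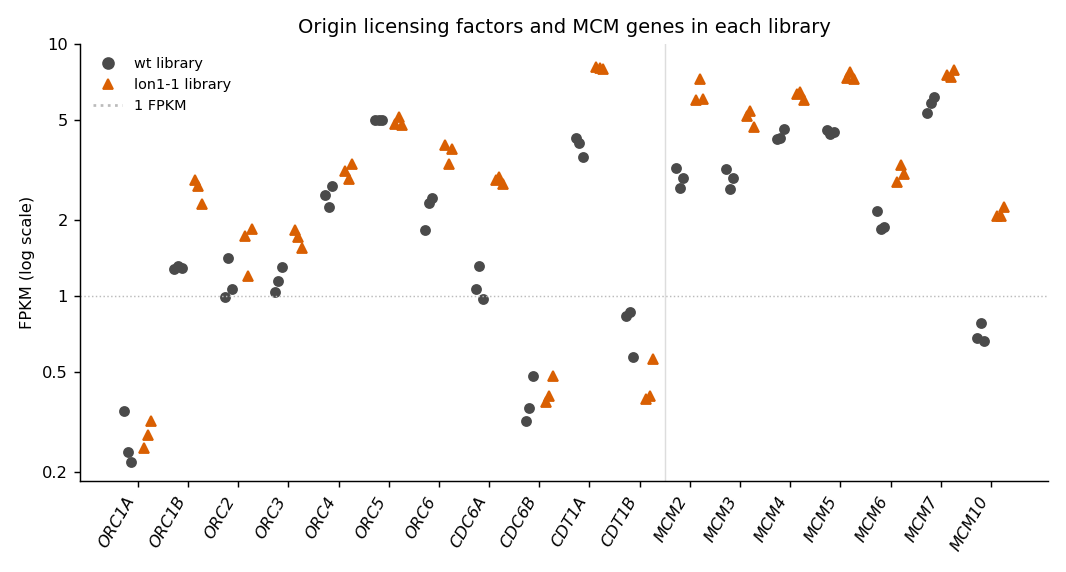
FPKM of the 11 licensing genes and of MCM2 to MCM7 and MCM10 in each library, on a log scale, with circles for wt, triangles for lon1-1 and a dotted line at 1 FPKM. The lon1-1 triangles of MCM2 to MCM7 and MCM10 all lie above their wt circles, and ORC1A, CDC6B and CDT1B stay under the dotted line.

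Of 9 genes for subunits of the replicative polymerases 8 rose and 0 fell, where 44.7% of all tested genes rose. ICU2, the catalytic subunit of polymerase alpha, which starts every new strand, had 2.64, 2.44 and 2.45 FPKM in wt and 5.07, 5.48 and 4.78 in lon1-1. The ratio was 2.04 without overlap (log2 fold change 0.80 ± 0.06, adjusted p = 1.82e-06). The polymerase alpha subunit POLA2 (0.62), the polymerase delta genes POLD1 (0.45), POLD2 (0.57) and POLD3 (0.31), and the polymerase epsilon subunit DPB2 (0.56) rose too. The small delta subunit POLD4 was the most abundant of the class, at 23, 23.3 and 22 FPKM in wt and 28.2, 22.55 and 22.94 in lon1-1. Its groups overlapped and it did not pass (adjusted p = 0.248). Outside the annotation-based set, the primase genes POLA3 (0.35) and POLA4 (0.70) rose as well.

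POL2B, the second gene for the catalytic subunit of polymerase epsilon, had the largest log2 fold change of the 93 tested genes, and it passed the filter through its lon1-1 libraries alone. It had 0.66, 0.57 and 0.64 FPKM in wt and 2.3, 2.6 and 2.49 in lon1-1. The ratio of means was 3.95 (log2 fold change 1.09 ± 0.07, adjusted p = 3.42e-07), and no libraries overlapped. Its paralog POL2A, the main gene for this subunit, had 2.26, 2.05 and 1.98 FPKM in wt and 3.39, 3.62 and 3.3 in lon1-1, a ratio of 1.64 (0.52 ± 0.07, adjusted p = 4.68e-05). POL2B made up 22.6%, 21.8% and 24.4% of the summed FPKM of the pair in wt and 40.4%, 41.8% and 43% in lon1-1. The deposited row of POL2B includes 1 transcript model added by the authors, so its FPKM is not that of the reference transcripts alone.

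The shares within the other paralog pairs were compared, with that of POL2B, by an exact permutation test, whose p cannot go under 0.1 for 3 libraries against 3. The share of CDT1B in its pair was 16.3%, 17.5% and 13.8% in wt and 4.6%, 4.73% and 6.6% in lon1-1, and that of CDC6B was 23%, 21.4% and 33.1% against 11.7%, 11.9% and 14.7%. Both minor paralogs thus had a smaller share in every lon1-1 library, while their own levels stayed under 1 FPKM. CDC6B itself had 0.32, 0.36 and 0.48 FPKM in wt and 0.38, 0.4 and 0.48 in lon1-1, which overlap. CDT1B had 0.83, 0.86 and 0.57 against 0.39, 0.4 and 0.56, without overlap, and at these levels neither gene was tested. ORC1B held 82.9% ± 3.77 (SD, n = 3) of its pair in wt and 90.2% ± 2.14 in lon1-1, and PCNA2 62.3% ± 0.52 and 56.8% ± 2.13, both without overlap. The exact two-sided permutation p was 0.1 for POL2B, CDT1B, CDC6B, ORC1B and PCNA2, the smallest it can give, and 0.12 after Benjamini-Hochberg adjustment over 6 pairs. For RPA32B, at 37% ± 4.19 and 32.2% ± 0.94, groups overlapped and the exact permutation p was 0.2. No share could pass 0.05 in this test, so it says nothing against a difference. Shares of similar copies, such as PCNA1 and PCNA2, also depend on how reads were divided between them.

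**Figure D4:**
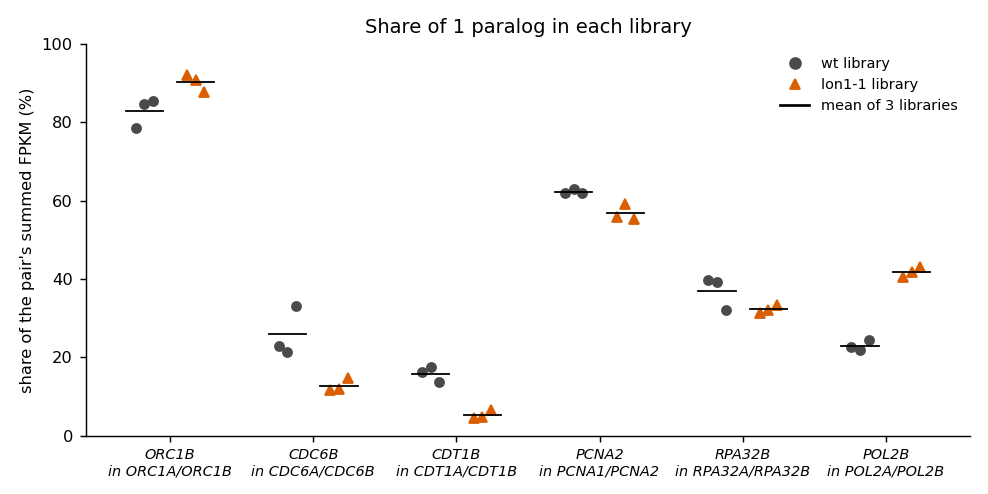
Share of 1 paralog in the summed FPKM of its pair (%), in each wt (circle) and lon1-1 (triangle) library, with bars at the mean of 3 libraries. The share of POL2B is higher and those of CDT1B and CDC6B are lower in every lon1-1 library, and the RPA32B shares overlap.

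Behind the polymerases, 8 of the 10 genes for the sliding clamp, its loader and the enzymes that join Okazaki fragments rose and 0 fell, with log2 fold changes of 0.15 to 0.60 among those that rose. The share that rose was 80%, against 44.7% of all tested genes. FEN1, the nuclease that trims the fragments, had 3.94, 3.61 and 3.74 FPKM in wt and 6.34, 6.25 and 6.04 in lon1-1, a ratio of 1.65 without overlap (0.60 ± 0.05, adjusted p = 4.58e-06). RFC1, the large subunit of the clamp loader, had 3.99, 4.17 and 3.99 FPKM in wt and 6.15, 6.28 and 5.96 in lon1-1, a ratio of 1.51 (0.50 ± 0.05, adjusted p = 1.28e-05). The clamp genes are similar copies, so the division of reads between them is uncertain, and how alike their transcripts are was not measured. PCNA1 had 6.36, 6.51 and 6.23 FPKM in wt and 9.23, 8.02 and 9.78 in lon1-1 (0.44, adjusted p = 0.000194). PCNA2, the more abundant copy, had 10.4, 11 and 10.2 FPKM in wt and 11.63, 11.65 and 12.13 in lon1-1 (0.15, adjusted p = 0.013), and with median-ratio scaling it did not pass (0.07, adjusted p = 0.215). RFC2 (0.36), RFC4 (0.48), RFC5 (0.29) and the nuclease and helicase JHS1 (0.36) also rose, but JHS1 passed the filter through its lon1-1 libraries alone. LIG1, the ligase that seals the fragments (0.11), and RFC3 (0.08) did not pass. CTF18, part of another clamp loader and outside the annotation-based set, rose (0.54).

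Of 8 tested genes for the single-strand binding complex RPA, 4 rose, 1 fell and 3 did not pass, with a median log2 fold change of 0.15. The share that rose, 50%, was near the 44.7% of all tested genes. RPA exists in plants in several forms, each with a large (RPA70), a middle (RPA32) and a small (RPA14) subunit. RPA70D, a large subunit, had 3.18, 3.53 and 2.71 FPKM in wt and 7.1, 7.21 and 6.61 in lon1-1, a ratio of 2.22 (0.95 ± 0.08, adjusted p = 1.98e-06). RPA70B had 2.59, 2.06 and 2.22 FPKM in wt and 3.24, 3.93 and 4.18 in lon1-1, a ratio of 1.65 (0.54 ± 0.09, adjusted p = 0.000376). Both large subunits were above wt in every lon1-1 library, as was RPA70A (0.44), whereas RPA70C did not pass (-0.03). The middle subunit RPA32A had 4.81, 5.24 and 5.16 FPKM in wt and 6.22, 6.2 and 6.7 in lon1-1 (0.28, adjusted p = 0.00116), and RPA32B had 3.17, 3.37 and 2.45 against 2.85, 2.92 and 3.34 (0.02, adjusted p = 0.857). RPA14B, a small subunit and the most abundant gene of the role, fell: it had 14.85, 14.26 and 13.95 FPKM in wt and 11.1, 10.5 and 10.8 in lon1-1, a ratio of 0.753 (-0.38 ± 0.04, adjusted p = 2.69e-05). RPA70E, at 0.61, 0.56 and 0.63 FPKM in wt and 0.91, 0.85 and 1.05 in lon1-1, was not tested.

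Ribonucleotide reductase makes the deoxynucleotides that the polymerases use, from a large subunit (RNR1) and small subunits (TSO2, RNR2A). RNR1 had 11.2, 12.8 and 12.2 FPKM in wt and 20.9, 20.8 and 20.8 in lon1-1, a ratio of 1.73 (0.74 ± 0.05, adjusted p = 4.53e-07). TSO2 had 21.4, 20.9 and 20.4 FPKM in wt and 33.77, 32.15 and 34.34 in lon1-1, a ratio of 1.6 (0.65 ± 0.04, adjusted p = 1.85e-07). The groups were apart for both, and these are among the better measured of the replication genes, at about 1011 to 2082 fragments a library. RNR2A did not pass, at 2.81 ± 0.32 FPKM (SD, n = 3) in wt against 3.15 ± 0.46 in lon1-1 (adjusted p = 0.273). Of the thymidine kinases, which salvage a nucleoside and lie outside the annotation-based set, TK1B rose (0.36) and TK1A did not pass (-0.03).

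Chromatin is rebuilt behind the fork by the histone chaperone CAF-1. Its subunit FAS1 had 1.68, 1.7 and 1.61 FPKM in wt and 3.98, 3.79 and 3.47 in lon1-1, a ratio of 2.25 without overlap (0.83 ± 0.07, adjusted p = 1.52e-06). MSI1, which CAF-1 shares with Polycomb complexes, had 15.9, 17.8 and 16.7 FPKM in wt and 23, 22.5 and 23.1 in lon1-1, a ratio of 1.36 (0.43 ± 0.05, adjusted p = 1.38e-05). FAS2, the remaining subunit and outside the annotation-based set, rose by 0.50. Both genes of topoisomerase I, which relaxes the DNA ahead of the fork, rose, where 44.7% of all tested genes rose. TOP1ALPHA had 13.1, 12.9 and 12.6 FPKM in wt and 21.6, 21.3 and 21 in lon1-1 (0.69 ± 0.04, adjusted p = 1.13e-07). TOP1BETA, its neighbour on chromosome 5, had 7.42, 7.28 and 7.34 against 11.45, 12.07 and 12.84 (0.65 ± 0.05, adjusted p = 1.43e-06). The copies are similar, so the division of reads between them is uncertain. Of the histone chaperone FACT, SSRP1 rose by 0.15, and SPT16, at 23.4 ± 0.81 FPKM in wt and 24.7 ± 1.02 in lon1-1, did not pass (adjusted p = 0.159).

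Of the 12 annotated genes that act in repair or in copying damaged DNA, 10 were tested, 7 rose and 0 fell. Thus 70% of those tested rose, beside 44.7% of all tested genes. RECQ4A, a helicase that resolves recombination intermediates, had 1.38, 1.33 and 1.33 FPKM in wt and 2.59, 2.41 and 2.7 in lon1-1, a ratio of 1.91 (0.60 ± 0.06, adjusted p = 1.48e-05). MEI1, which is needed for meiotic DNA repair, had 3.14, 3.23 and 3.38 against 4.81, 4.57 and 4.29 (0.39 ± 0.06, adjusted p = 0.000226). LIG4, the ligase of end joining, was the most abundant of them, at 6.95 ± 0.18 FPKM in wt and 8.55 ± 0.20 in lon1-1 (0.26, adjusted p = 0.000557). RECQL2, another helicase of this family, rose by 0.28. The translesion polymerase genes REV3 (0.01) and POLH (-0.09) did not pass.

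The annotation also brought in 6 genes of AAA-type ATPases, of which 5 were tested, 4 rose and 1 fell. Over these few genes the shares were 80% higher and 20% lower, against 44.7% and 32.3% of all tested genes. STI (STICHEL), known for the branching of leaf hairs, had 3.81, 3.87 and 3.64 FPKM in wt and 7.34, 7.54 and 6.97 in lon1-1, a ratio of 1.93 (0.79 ± 0.05, adjusted p = 5.63e-07). AT4G18820 had 3.26, 2.93 and 2.62 against 5.05, 5.71 and 4.84 (0.66 ± 0.08, adjusted p = 3.43e-05). AT1G24290 fell, from 2.18, 2.41 and 2.64 FPKM in wt to 1.47, 1.74 and 1.5 in lon1-1, a ratio of 0.651 (-0.41 ± 0.08, adjusted p = 0.00078). Among the 8 other annotated genes, 3 of 6 tested rose, and this 50% was near the 44.7% of all tested genes. AT3G42660, described in the deposited table as a WD-40 repeat protein, had 3.12, 2.84 and 2.95 FPKM in wt and 4.98, 5.43 and 5.86 in lon1-1 (0.69 ± 0.07, adjusted p = 6.89e-06). AT5G52950 rose by 0.45, but it passed the filter through its lon1-1 libraries alone. AT3G52050, an exonuclease family gene, did not pass, at 5.12 ± 0.48 FPKM in wt against 4.49 ± 0.13 in lon1-1 (-0.15, adjusted p = 0.0595). POLL and AT4G24790 had 0.48 to 1.09 FPKM and AT5G51795 0.14 to 0.24 FPKM, and AT1G49250, AT1G52950 and AT4G18596 were listed at 0 to 0.09 FPKM, and none of these 6 was tested.

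Replication genes of the organelles were higher as well. Of the 9 genes in the set, 8 rose and 0 fell, with log2 fold changes of 0.14 to 0.52 among those that rose. This was 88.9%, where 44.7% of all tested genes rose. By the call beyond 1.5-fold 0 of the 9 passed, where 8.33% of all tested genes passed upward. OSB3, a single-strand binding protein of mitochondria, had 4.1, 4.43 and 3.93 FPKM in wt and 6.48, 6.2 and 6.55 in lon1-1, a ratio of 1.54 (0.52 ± 0.06, adjusted p = 1.74e-05). The mitochondrial single-strand binding protein SSB1 had 3.9, 5.35 and 4.14 against 6.81, 6.57 and 5.84 (0.45 ± 0.10, adjusted p = 0.00194). Of the organelle polymerases, POLIB had 7.01, 7.38 and 6.9 FPKM in wt and 9.04, 9.08 and 9.13 in lon1-1 (0.32 ± 0.05, adjusted p = 0.000146), and POLIA had 5.27, 5.25 and 5.77 against 5.41, 5.32 and 5.41, which overlap (-0.01, adjusted p = 0.871). TWINKLE, the organelle helicase and primase, rose by 0.42. The listed genes for organelle DNA that the annotation did not bring in all rose, 6 of 6. They were GYRA, GYRB1, GYRB2, RECA2, RECA3 and MSH1, and not all of them act in replication itself. GYRA, the DNA gyrase subunit that acts on organelle DNA, led them at 3.98 ± 0.27 FPKM in wt and 10.3 ± 0.23 in lon1-1 (1.18 ± 0.06, adjusted p = 4.26e-08), followed by GYRB2 (0.69).

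A further 4 of the 103 genes carry a replication term while the deposited table describes their transcripts as another product or, for AT3G27050, gives no function, and 0 of the 3 tested rose. GGH1, a gamma-glutamyl hydrolase, lies next to POLD3, AT5G57150 next to LIG4 and AT3G27050 next to TSO2, while AT4G18596 has 1 gene between it and RPA14B. The deposited protein descriptions of GGH1 and AT3G27050 name both their own product and that of the gene beside them. GGH1 had 124.1, 123.6 and 124.4 FPKM in wt and 106.2, 98.4 and 103.6 in lon1-1, without overlap (-0.27 ± 0.03, adjusted p = 4.65e-05), while POLD3 beside it rose. AT3G27050 had 5.08, 4.45 and 5.54 FPKM in wt and 4.55, 3.96 and 4.19 in lon1-1, groups that overlap, and was called lower (-0.20 ± 0.08, adjusted p = 0.0374). That call was lost in 5 of 12 alternative settings, among them leaving out wt replicate A (adjusted p = 0.0854), wt replicate C (0.139), lon1-1 replicate B (0.115) or lon1-1 replicate C (0.0795). Without these 4 genes, 2 replication genes were called lower in place of 4, RPA14B and AT1G24290.

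Genes around replication in the cell cycle were read beside this set. Of 17 regulators of S phase entry, 13 rose, 1 fell and 3 did not pass, with a median log2 fold change of 0.32, where 44.7% of all tested genes rose. Among the 13, CYCA3;1 and DEL2 passed the filter through their lon1-1 libraries alone. CYCD2;1, a D-type cyclin that starts the cycle, had 10.3, 10.2 and 9.59 FPKM in wt and 26.4, 25 and 27 in lon1-1, a ratio of 2.6 (1.30 ± 0.05, adjusted p = 5.25e-09). CYCA3;2, an S phase cyclin, had 15.09, 13.67 and 15.45 against 37, 35.3 and 38.6, a ratio of 2.51 (1.27 ± 0.05, adjusted p = 1.51e-08). The transcription factor genes E2FA (0.50), E2FB (0.43) and E2FC (0.39), their partners DPA (0.56) and DPB (0.32) and the restraining RBR1 (0.36) also passed upward. CYCD1;1, another D-type cyclin, fell (-0.60). CYCD3;2 rose by 0.14, and CYCD3;1 (-0.12), CYCD3;3 (0.03) and DEL3 (-0.02) did not pass. Since the list holds restraining genes such as RBR1 too, its count does not give a direction of S phase entry.

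Markers of G2 and mitosis went the other way. Of 16 genes 15 were tested, 13 fell, 0 rose and 2 did not pass, with a median log2 fold change of -0.52. Of all tested genes, 32.3% fell. CYCB1;3, a mitotic cyclin, had 4.35, 4.94 and 4.48 FPKM in wt and 1.78, 1.61 and 2.01 in lon1-1, a ratio of 0.392 (-0.998 ± 0.07, adjusted p = 1.02e-06). CYCB1;4 had 7.75, 7.27 and 7.56 against 3.93, 3.89 and 3.91, a ratio of 0.52 (-0.80 ± 0.05, adjusted p = 3.59e-07). The summed FPKM of the 16 genes was 79.55, 82.9 and 75.4 in wt and 48.35, 48.3 and 51.3 in lon1-1. No gene of this list held an E2F word in its window, 0 of 16. Such a word stood in only 1.82% of all windows, so this count does not set the list apart from other genes.

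Genes of the endocycle and inhibitors of cyclin-dependent kinases were mixed: 9 of 16 rose, 2 fell and 5 did not pass, with a median of 0.28. The share that rose, 56.2%, was not far from the 44.7% of all tested genes. By the call beyond 1.5-fold, 4 of the 16 passed upward (25%) and 0 downward, where 8.33% of all tested genes passed upward. CCS52A1, an activator of cyclin destruction that promotes the endocycle, had 5.93, 6.43 and 6.4 FPKM in wt and 16.6, 16.8 and 16.4 in lon1-1, a ratio of 2.65 (1.28 ± 0.05, adjusted p = 6.54e-09). KRP7, a kinase inhibitor, had 1.82, 1.47 and 1.07 against 4.23, 3.37 and 3.83 (0.98 ± 0.11, adjusted p = 2.55e-05). Of 12 DNA damage response genes 7 rose, 1 fell and 4 did not pass, with a median of 0.34, and 58.3% of them rose against the same 44.7%. Beyond 1.5-fold, 4 of the 12 passed upward (33.3%) and 0 downward, against the same 8.33%. GMI1, which acts in recombination repair, had 3.32, 3.33 and 3.42 FPKM in wt and 11.84, 11.65 and 11.97 in lon1-1 (1.56 ± 0.05, adjusted p = 2.22e-09), and PARP2, which acts on broken DNA, had 1.32, 1.44 and 1.02 against 4.13, 3.96 and 4.62 (1.21 ± 0.09, adjusted p = 7.21e-07). SOG1, the plant regulator of this response, fell (-0.23).

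**Figure D5:**
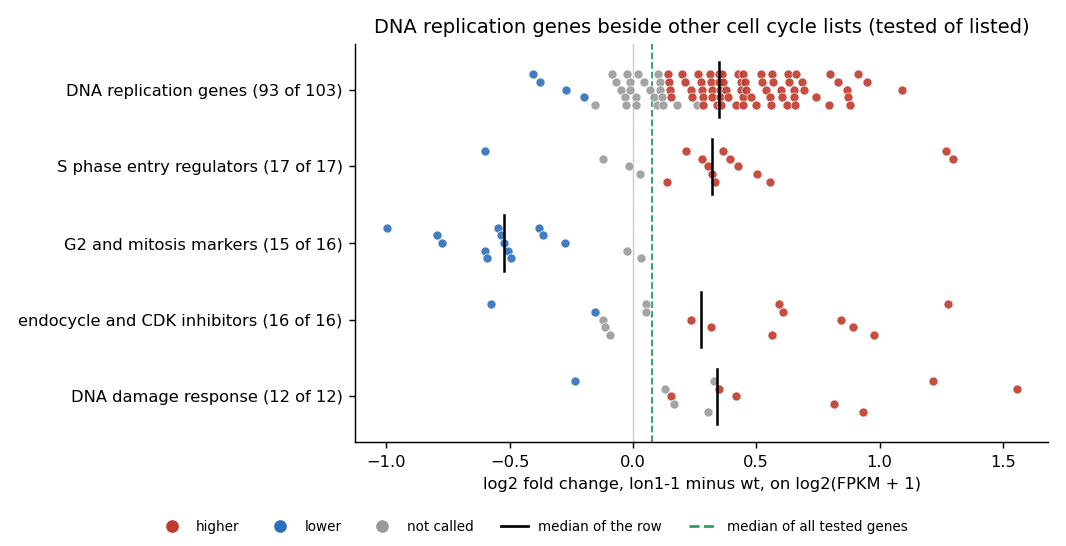
Log2 fold change (lon1-1 minus wt, on log2(FPKM + 1)) of the tested DNA replication genes and of the tested genes of 4 other cell cycle lists, 1 point a gene, with red for called higher, blue for lower, grey for not called, black bars at row medians and the dashed line at the median of all tested genes. The row of G2 and mitosis markers has its median at -0.52, and the other rows have theirs between 0.28 and 0.35.

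Genes listed as markers of meristems and of the stomatal lineage were read as well. Of 11 listed meristem markers, 6 were tested, 0 rose and 2 fell, STM (-0.79) and SHR (-0.46). WUS, also chosen as a marker, was not among these 11. The share that fell, 33.3% of those tested, was near the 32.3% of all tested genes. KNAT1 (-0.03), CLV1 (-0.03), SCR (-0.07) and ANT (-0.13) did not pass. Summed FPKM of the 11 markers was 57.3 to 58.9 in wt and 50.2 to 52.5 in lon1-1. The stem cell marker CLV3 was listed at 0 in 3 libraries and at no more than 0.15 FPKM in the rest, and the root marker WOX5 stood at 0.16 to 0.31 FPKM. Of 7 stomatal lineage markers, TMM alone reached the filter and fell (-0.97). The summed FPKM of the 7 was 6.64 to 7.43 in wt and 3.11 to 3.93 in lon1-1. The part of tissue makeup in the higher levels of the replication genes was not tested.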

How the data were processed

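Gene expression was measured in 3 wt and 3 lon1-1 libraries. The deposited table gives FPKM per gene and library, computed by the authors and written to 2 decimals. HISAT2, Bowtie2, RSEM and TAIR10 are named in the submitters' processing notes, and their versions, their settings and the use made of strand are not given in the sources used here. FPKM are not counts, so limma 3.58.1 in R 4.3.3 (eBayes with trend) was fitted to log2(FPKM + 1) by genotype alone, over the 18308 genes that reached 1 FPKM in 3 or more libraries. P-values were Benjamini-Hochberg adjusted over all of them with a threshold of 0.05, and changes beyond 1.5-fold were called with limma's treat. Log2 fold changes include the pseudocount of 1 and understate the change of weakly expressed genes, so ratios of mean FPKM are given too. Values after a mean are SD over 3 libraries, and those after a log2 fold change are SE.

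RSEM divides reads among similar genes, so values of near-identical copies are uncertain. Fragments were estimated for genes with 1 transcript model, with depth and a length offset of 180 bases chosen so that low values fell within 0.15 of whole fragments (95.2% to 96.4% did). Counting intervals were not computed, since counts were not used here. Of the 103 genes, 24 have transcript models added by the authors. Loci, symbols and promoter windows come from the TAIR10.1 release of RefSeq, and gene starts are annotated, not measured.

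The members, the gene lists and the tests were chosen with earlier results of these data known, and the names and roles of 38 members outside the textbook lists were assigned after their annotation was read. The rule for named genes took from each role the gene with the highest mean and up to 2 called genes with the largest rise and fall, both genes of each paralog pair, the 5 largest rises and falls of all, and up to 2 called genes of each other list. Further genes, such as MCM3 to MCM6, were named after their values were seen. Alternatives were another pseudocount, no filter, 2 scalings, a replicate block, no trend, and leaving out each library.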

Additional observations from a re-analysis of the deposited data

How the results depend on the processing

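The number of replication genes called higher stayed between 57 and 66 over 12 alternative settings. None of the 66 changed sign where it was tested, which was in 9 settings for all 66 and for 61 of them without a lon1-1 library, since the other 5 reach 1 FPKM in lon1-1 libraries alone. With median-ratio scaling, which moved the median of all tested genes from 0.08 to -0.0029, 58 replication genes were called higher and 6 lower, beside 37.9% and 38.5% of all tested genes. The count past 1.5-fold, 10 as reported, was 6 with median-ratio scaling and 3 to 9 when single libraries were left out, the lowest without lon1-1 replicate B. Without any 1 lon1-1 library, 88 genes were tested in place of 93, and POL2B and MCM10 were among the 5 lost. The cause of the remaining losses was not tested. Without the 4 genes described as another product or with no function, 2 replication genes were called lower in place of 4. Of 687 values of 58 named genes under the alternatives, 677 kept direction and call, 6 lost the call, 4 gained it and 0 reversed. The calls lost were those of PCNA2 and AT3G27050 and those gained were of AT3G52050. Differences in paralog shares moved by less than the spread between libraries when any library was left out.

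The replicate letters did not pair the libraries: deviations of libraries with the same letter correlated at 0.06, 0.02 and -0.03. With the letter as a replicate block, 66 replication genes were called higher, 4 lower and 10 past 1.5-fold. Low expression limits the smallest genes, since 1 FPKM in a transcript of 1 kilobase stood for about 26.9 to 29.1 fragments.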
